A study of Mus musculus with 12 samples.

Results

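The genotype by PF interaction is, for each gene, the log2 response to PF-06409577 (PF) in WT bone marrow-derived macrophages (BMDMs) minus the log2 response in AMPKβ1-/- BMDMs. A positive value means that the response to PF was more positive in WT BMDMs and a negative value that it was more negative. All genes that passed a filter on low counts were members, which were 10822 of the 12960 genes of the counts, and all 12 libraries entered the fit.

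BMDMs were grown for 7 days from the marrow of tibia and femur with L929 medium as the source of M-CSF, from wild-type mice and from mice with a whole-body deletion of AMPKβ1, so that the AMPKβ1-/- cells also lacked this subunit while they differentiated. Each genotype received 0.1% DMSO as vehicle or 10 μM PF for 6 h. Every combination of genotype and treatment has 3 libraries, 12 in all. The age, sex and strain of the mice are not in the labels, nor is it said whether the libraries of a group came from separate mice, so that p values measure the spread between these libraries, which may be technical. From 8935609 to 14358180 counts per library were assigned to genes, and 3 counts, the most that a count of 0 allows, are 0.196 to 0.321 CPM depending on the library, where CPM are counts scaled to a common normalized library size. The 18 macrophage markers (*Adgre1*, *Cd68*, *Csf1r*, *Lyz2* and others) were all among the counts and summed to 39711 to 46459 CPM in every library. Markers of granulocytes summed to 87.5 to 105 CPM, and of these 8 markers only *Csf3r* passed the low-count filter. Markers of lymphoid cells summed to 0.707 to 2.07 CPM. Those of fibroblasts summed to 2.75 to 6.52 CPM in WT and 6.61 to 23.7 CPM in AMPKβ1-/- libraries. Markers of erythroid cells and megakaryocytes summed to 9.51 to 12.9 CPM in WT and 17.3 to 22.7 CPM in AMPKβ1-/- libraries. All these marker sums were scaled to the total counts of each library alone, without the normalization of the other CPM.

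AMPK is a kinase of a catalytic α, a scaffolding β and a regulatory γ subunit that is active when cellular energy is low. PF binds at the interface of the α subunit and β1, and macrophages of the mouse hold mostly β1. AMPK phosphorylates acetyl-CoA carboxylase, the entry to fatty acid synthesis and lowers its activity. The genes of cholesterol synthesis are transcribed by SREBP2, a membrane-bound factor that INSIG proteins hold in the endoplasmic reticulum while sterols are plentiful.

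*Prkab1*, which encodes AMPKβ1 (chromosome 5 from 116013586 to 116024508 in GENCODE M21 on GRCm38), checks the labels. It had 43.4, 44.2 and 45.3 CPM in the WT vehicle libraries, 41.9, 37.3 and 37.7 in WT with PF, 8.39, 7.70 and 6.05 in AMPKβ1-/- with vehicle and 9.41, 9.42 and 7.90 in AMPKβ1-/- with PF. No library went against its genotype. The interaction of *Prkab1* itself was −0.45 (SE 0.17, adjusted p = 0.26), where adjusted p values here and below are from edgeR's quasi-likelihood test with Benjamini-Hochberg adjustment over the 10822 genes and SE are approximate. Over the alternatives of the processing its adjusted p was 0.0428 to 0.522.

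The interaction passed the test at an adjusted p below 0.05 for 45 genes, 0.416% of those tested. The response was more positive in WT BMDMs for 19 of these (0.176%) and more negative for 26 (0.24%). With the threshold for a DEG, a log2 difference above 0.8 or below −0.8 as well, 17 genes remained (0.157%), 9 positive (0.0832%) and 8 negative (0.0739%). At an unadjusted p below 0.05 there were 1550 genes (14.3%), 687 positive (6.35%) and 863 negative (7.97%). Whatever the p, the interaction was positive for 5388 and negative for 5434 of the 10822 genes. By DESeq2 68 positive and 111 negative genes passed, and by limma-voom 16 and 27. The count of 45 by edgeR rested on single libraries: it was 285 without WT PF library 1, 87 without AMPKβ1-/- vehicle library 1 and between 5 and 36 without any 1 of the other 10. In each of these fits all 45 genes kept their sign, and 40 of them had an adjusted p above 0.05 in at least 1, up to 0.18. 5 genes (*Cx3cr1*, *Fabp5*, *Arap3*, *Cyp51* and *Scd2*) stayed below 0.05 whichever library was left out.

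The interaction of the 45 genes was a response of WT BMDMs with little on the other side. In WT, 19 were higher and 26 lower with PF at an adjusted p below 0.05, where 15.9% of all tested genes passed (6.99% higher, 8.95% lower), and the ranges of the WT PF and WT vehicle libraries were separate for all 45 (32.2% of all tested genes). In AMPKβ1-/- BMDMs 0 of the 45 passed by edgeR, where 0.0554% of all genes did, and 3 had an unadjusted p below 0.05 (*Bcl3* and *Psma4* among them), against 4.98% of all genes. The AMPKβ1-/- responses lay between −0.25 and 0.38 on the log2 scale, and 41 of them within 0.2 of 0. The median response of the 19 positive genes was 0.72 in WT and −0.086 in AMPKβ1-/-, and that of the 26 negative genes was −0.67 and 0.047. The sign in AMPKβ1-/- was opposite to that in WT for 33 of the 45. Both responses are terms of the interaction, so that these counts describe the genes that passed and are no further support. The median SE over all genes was 0.18 for the interaction against 0.13 for either response alone.

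**Figure D1:**
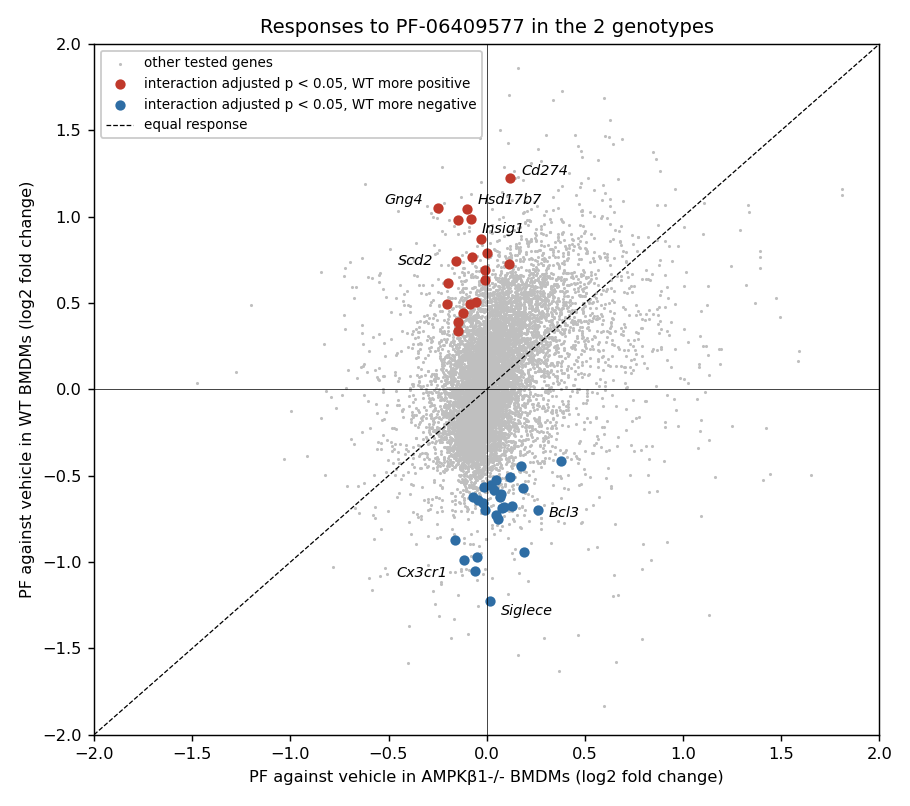
Log2 fold change with PF in WT BMDMs (vertical axis) against that in AMPKβ1-/- BMDMs (horizontal axis) for the tested genes, 15 of which lie outside the axes. The 19 genes in red and the 26 in blue passed the interaction test, and they lie within 0.38 of 0 on the horizontal axis and away from 0 on the vertical one, while the dashed line marks equal responses.

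Cholesterol synthesis held the most genes past the test of the lists examined. Of the 21 enzymes, all of which were tested, 4 passed, among them *Cyp51*, *Msmo1* and *Hsd17b7*, all 4 with the more positive response in WT, and 0 enzymes passed in the other direction. The interaction was positive for 19 of the 21, and 13 of these had an unadjusted p below 0.05 (6.35% of all genes). The median interaction of the list was 0.53, from a median response of 0.38 in WT and −0.075 in AMPKβ1-/-, beside −0.0023 over all genes. The list was written with earlier results of these data known, and the study named sterol synthesis from these libraries, so that the count is not independent evidence of its direction.

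*Hsd17b7*, the 3-keto reductase of the sterol ring (chromosome 1 from 169949535 to 169969241), had 6.63, 7.66 and 8.16 CPM in WT with vehicle and 13.4, 14.7 and 18.2 with PF. The AMPKβ1-/- libraries had 12.03, 11.9 and 11.5 with vehicle and 11.4, 11.8 and 9.76 with PF. Each WT PF library was thus above each WT vehicle library, and the AMPKβ1-/- libraries lay between them. The response was 1.04 (SE 0.15) in WT and −0.10 (SE 0.14) in AMPKβ1-/-, and the interaction 1.14 (SE 0.21, adjusted p = 0.0261). *Hsd17b7* was the 1 sterol enzyme among those that passed whose level differed with vehicle by the adjusted test, where AMPKβ1-/- stood above WT by 0.66 (SE 0.15, adjusted p = 0.00175) on the log2 scale.

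*Cyp51*, the lanosterol demethylase (chromosome 5 from 4081145 to 4104746), had 58.8, 58.3 and 53.1 CPM in WT with vehicle and 90.2, 95.7 and 104 with PF, against 49.7, 50.1 and 52.5 and 51.4, 47.8 and 45.2 in AMPKβ1-/-. The AMPKβ1-/- groups overlapped each other and lay below every WT library. The interaction was 0.84 (SE 0.12, adjusted p = 0.00811). *Msmo1*, the methylsterol oxidase that acts after it, had 66.8, 72.9 and 61.7 CPM in WT with vehicle and 104, 118 and 127 with PF, and 55.5, 63.5 and 69.9 and 62.1, 62.9 and 64.1 in AMPKβ1-/-, with an interaction of 0.79 (SE 0.14, adjusted p = 0.0261).

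The values of single enzymes are given along the pathway, and differences between enzymes were not tested. In the part that leads to isoprenoid diphosphates, *Hmgcs1*, which makes HMG-CoA, and *Idi1*, the isopentenyl diphosphate isomerase, had interactions of 1.02 and 0.89 with wide errors (SE 0.28 and 0.33), and *Mvk* and *Pmvk*, the kinases of mevalonate, had −0.053 and −0.026, and 0.13 and 0.076 in a fit in which the dependence of each library on GC content and length was taken out (the GC-adjusted fit). In the part from squalene to cholesterol, *Sqle* and *Lss*, which oxidize and cyclize squalene, had 0.54 and 0.45, and *Sc5d*, a desaturase near the end, 0.80. *Dhcr7*, *Ebp* and *Tm7sf2*, which also work on the sterol ring, had values between 0.0082 and 0.14. Apart from the 4 enzymes above, 17 did not pass the adjusted test, and the smallest adjusted p among them was 0.0700 (*Sqle*). By DESeq2 9 of the 21 passed and by limma-voom the same 4, where 68 and 16 of all 10822 genes passed as positive. In the GC-adjusted fit 11 of the 21 passed. There 74 of all genes passed as positive, against 19 by edgeR without the GC adjustment. The 11 were the former 4 with *Hmgcs1*, *Mvd*, *Fdps*, *Fdft1*, *Sqle*, *Lss* and *Sc5d*, and the median of the list was 0.54.

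**Figure D2:**
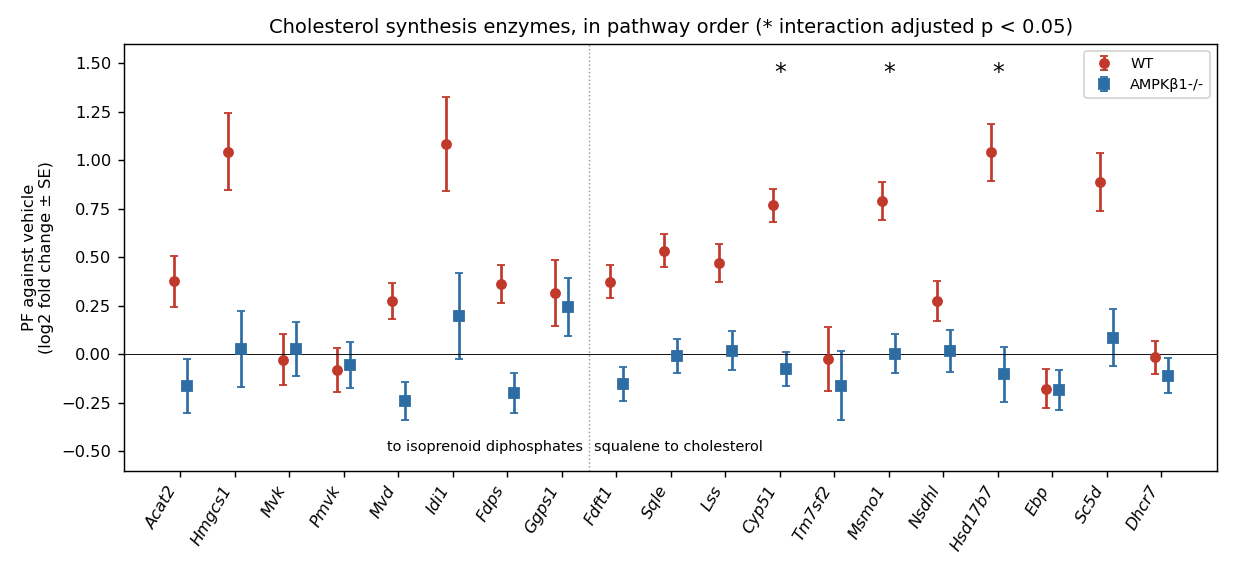
Log2 fold change with PF ± SE for 19 of the 21 enzymes of cholesterol synthesis in pathway order, with WT as red circles and AMPKβ1-/- as blue squares. WT values reach 1.08 at *Idi1* while the AMPKβ1-/- values stay between −0.24 and 0.25, and asterisks mark the 3 plotted enzymes past the interaction test.

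*Insig1* encodes the retention protein of the SREBP complex, which is itself a target of SREBP (chromosome 5 from 28071363 to 28078662). It had 52.4, 62.95 and 71.2 CPM in WT with vehicle and 104, 126 and 139.6 with PF, against 65.4, 62.5 and 57.1 and 57.4, 59.7 and 58.03 in AMPKβ1-/-. WT PF libraries lay above all 9 others. The interaction was 1.07 (SE 0.16, adjusted p = 0.0133), from responses of 0.99 (SE 0.12) and −0.080 (SE 0.12). It was the 1 of 16 tested genes of SREBP control and lipoprotein uptake to pass. *Srebf2*, *Srebf1* and *Scap*, which encode the factors and their escort, had interactions of −0.10, −0.16 and −0.21, and 0.12, 0.056 and −0.11 in the GC-adjusted fit.

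The sequences before the start of *Insig1*, *Hsd17b7* and *Cyp51* are shown because each of these genes rose with PF in WT and sterol genes are commonly bound by SREBP with NF-Y, which reads CCAAT. Windows of 250 bases before the RefSeq start (GRCm38.p6) were searched on both strands for TCACNCCAC, the letters of a sterol regulatory element, for CCAAT, and for the E-box CACGTG. Below, 5′ to 3′ along the gene's strand, capitals mark matches on either strand (ATTGG is CCAAT on the other strand), and bases after the earliest start in GENCODE M21 are left out. *Insig1* (chr5:28071162-28071362, plus strand), *Hsd17b7* (chr1:169969242-169969455, minus strand) and *Cyp51* (chr5:4104747-4104947, minus strand) read:
Insig1: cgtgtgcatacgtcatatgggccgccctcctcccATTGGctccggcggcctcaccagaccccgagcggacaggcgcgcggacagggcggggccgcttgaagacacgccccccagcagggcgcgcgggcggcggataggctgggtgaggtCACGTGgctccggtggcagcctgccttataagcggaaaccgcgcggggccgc
Hsd17b7: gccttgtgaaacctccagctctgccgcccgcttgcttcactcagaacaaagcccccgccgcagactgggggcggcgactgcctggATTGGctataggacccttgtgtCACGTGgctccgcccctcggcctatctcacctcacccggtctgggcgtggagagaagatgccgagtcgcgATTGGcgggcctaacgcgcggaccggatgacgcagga
Cyp51: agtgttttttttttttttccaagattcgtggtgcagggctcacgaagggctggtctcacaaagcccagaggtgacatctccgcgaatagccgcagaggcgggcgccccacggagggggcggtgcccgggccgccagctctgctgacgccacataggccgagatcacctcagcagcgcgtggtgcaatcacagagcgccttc

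*Insig1* and *Hsd17b7* held both CCAAT and CACGTG in these stretches, and the 1 CCAAT of the *Cyp51* window lay in the 49 bases left out. Over the whole windows CCAAT was found in 15 of the 16 cholesterol synthesis genes with a window, against 40.9% of the 8784 tested genes with one. A gene was counted if any of its windows held the letters. Counted by window and not by gene, CCAAT was in 33.8% of all 32851 windows. TCACNCCAC was found in 1 of the 16 (*Hmgcs1*) against 1.21% of tested genes and 1.05% of all windows, and CACGTG in 3 of the 16 against 10.4% and 6.02%. Among the genes past the test 29 had a window, of which 9 held CCAAT, 3 CACGTG and 1 TCACNCCAC. A match of these letters is a description and no binding was measured here.

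In fatty acid metabolism the interaction passed for *Scd2* and *Fabp5*. *Scd2*, a stearoyl-CoA desaturase, had 48.1, 51.3 and 54.6 CPM in WT with vehicle, 81.04, 88.7 and 88.2 with PF, 34.9, 33.8 and 30.5 in AMPKβ1-/- with vehicle and 32.5, 28.1 and 28.5 with PF. AMPKβ1-/- libraries lay below every WT library, and only in WT did the PF group leave the vehicle group, with an interaction of 0.90 (SE 0.13, adjusted p = 0.00811). *Fabp5* encodes a fatty acid binding protein, and a near-identical copy, *Fabp5l2*, is annotated, so that its counts may be shared. It had 334, 339 and 284 CPM in WT with vehicle, 568, 611 and 571 with PF, 177, 200.2 and 199 in AMPKβ1-/- with vehicle and 188, 193 and 184 with PF, and an interaction of 0.90 (SE 0.12, adjusted p = 0.00471). Of the 17 tested genes of fatty acid synthesis and desaturation *Scd2* was the 1 that passed. *Acaca* and *Fasn*, which encode acetyl-CoA carboxylase and fatty acid synthase, had interactions of 0.024 (SE 0.14) and 0.20 (SE 0.16), and *Scd1* had 0.15 (SE 0.24). In the GC-adjusted fit *Fasn* had 0.46 and passed (adjusted p = 0.0247), *Acaca* had −0.049 and *Scd1* 0.29. Of 21 fatty acid oxidation genes 0 passed by edgeR, DESeq2 or limma-voom, with 5 at an unadjusted p below 0.05 (14.3% of all genes). Of 16 genes of LXR and cholesterol efflux 0 passed by edgeR or limma-voom and 2 by DESeq2 (*Soat1* and *Nceh1*, positive), with 3 positive and 6 negative at an unadjusted p below 0.05 (6.35% and 7.97% of all genes) and a median of −0.26, which was −0.11 in the GC-adjusted fit. Without the GC adjustment *Nr1h3* (LXRα) had −0.48 and *Abca1*, the cholesterol exporter, −0.58 (adjusted p = 0.151 and 0.25). *Soat1*, which esterifies cholesterol, had 0.52 (adjusted p = 0.0799) without it. In the GC-adjusted fit *Soat1* had 0.39 and was the 1 gene of this list that passed (adjusted p = 0.0265).

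**Figure D3:**
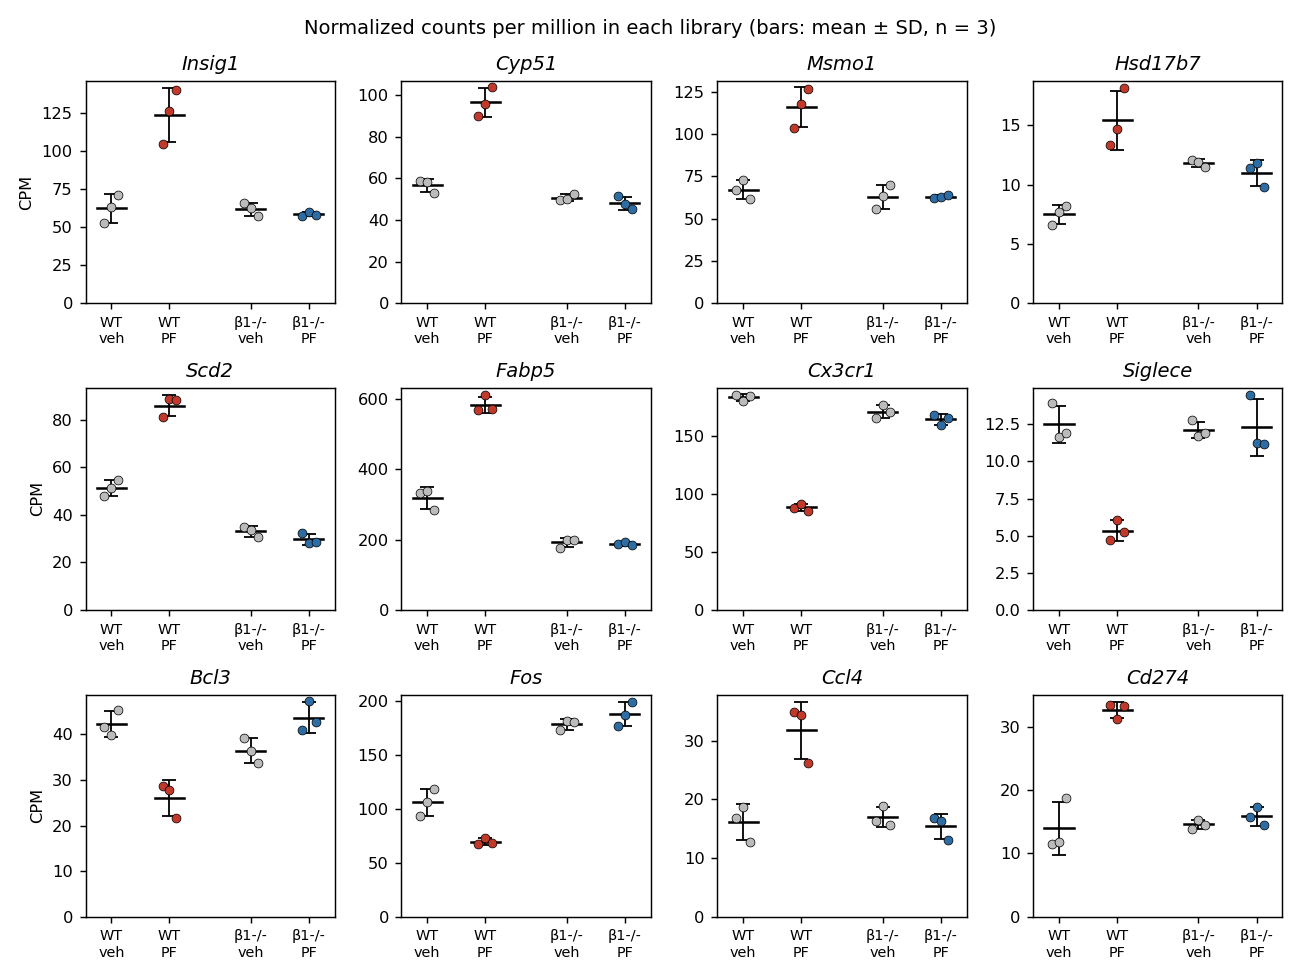
CPM of 12 genes in each of the 12 libraries, with vehicle (veh) in grey and PF in red for WT or blue for AMPKβ1-/-, the horizontal line the mean and the bar ± SD of 3 libraries. In each panel the WT PF points leave the WT vehicle points, upward for *Insig1*, *Cyp51*, *Msmo1*, *Hsd17b7*, *Scd2*, *Fabp5*, *Ccl4* and *Cd274* and downward for *Cx3cr1*, *Siglece*, *Bcl3* and *Fos*.

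Of 22 homeostatic receptor and marker genes of macrophages 2 passed, *Cx3cr1* and *Olfml3*, both negative and the same 2 by edgeR, DESeq2 and limma-voom. By edgeR 0.24% of all genes passed as negative. *Cx3cr1*, the fractalkine receptor (chromosome 9 from 119901616 to 120069879), had the smallest p of all genes. It had 185, 179.6 and 184 CPM in WT with vehicle and 87.99, 91.4 and 85.2 with PF, against 165, 176 and 170.2 and 168, 159 and 165 in AMPKβ1-/-. The 3 WT PF libraries lay below the other 9, and the AMPKβ1-/- groups overlapped. The interaction was −0.995 (SE 0.094, adjusted p = 0.000174), and the 95% interval of the AMPKβ1-/- response was −0.20 to 0.083. *Olfml3*, a secreted olfactomedin-like protein, had 30.9, 24.4 and 24.9 CPM in WT with vehicle and 13.5, 14.1 and 13.2 with PF, against 29.4, 31.4 and 34.04 and 29.5, 29.1 and 32.9, with an interaction of −0.92 (SE 0.16, adjusted p = 0.0236). Of the 22 genes 16 had a negative interaction, beside 5434 of all 10822 genes. *Csf1r*, the M-CSF receptor, *Stab1* and *Lrp1*, both scavenger receptors, had −0.43, −0.49 and −0.45 with adjusted p values of 0.171, 0.209 and 0.227.

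Of the 18 macrophage identity markers 0 passed by edgeR or limma-voom and 1 by DESeq2 (*Itgam*, negative). A negative interaction was found for 14 and an unadjusted p below 0.05 for 7 (14.3% of all genes), with a median of −0.27, from −0.26 in WT and −0.020 in AMPKβ1-/-. The median was −0.17 in the GC-adjusted fit. Their summed level, scaled to total counts alone, was 41338 to 45003 CPM in WT with vehicle and 39711 to 41496 with PF. In AMPKβ1-/- it was 42707 to 46459 and 44481 to 44673. The normalization factors left out here were 0.881 to 0.995 in WT libraries and 1.05 to 1.09 in AMPKβ1-/- ones. Dividing by them would raise the WT sums and lower the AMPKβ1-/- sums. The groups are therefore not compared on the scale of the other CPM. In bulk libraries fewer cells of a type and less RNA per cell cannot be told apart. The part of these markers in the falls of the receptors was not tested.

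*Siglece*, an inhibitory receptor for sialic acids, had 13.9, 11.6 and 11.9 CPM in WT with vehicle and 4.72, 6.08 and 5.23 with PF, and 12.8, 11.7 and 11.9 and 14.5, 11.2 and 11.2 in AMPKβ1-/-, with an interaction of −1.24 (SE 0.21, adjusted p = 0.0199). *Fgr*, a SRC family kinase of myeloid cells, had 30.8, 33.7 and 33.7 and 20.7, 22.3 and 18.6 CPM in WT and 21.8, 26.02 and 22.5 and 27.5, 25.05 and 24.6 in AMPKβ1-/-, with −0.81 (SE 0.15, adjusted p = 0.0358). They were the 2 of 35 tested genes of Fc receptors, integrins and SYK signalling that passed by edgeR and limma-voom (3 by DESeq2, with *Itgam*). By edgeR 0.24% of all genes passed as negative. Of the 35 genes 25 were negative, beside 5434 of all 10822 genes, with a median of −0.15. *Dok2*, an adaptor that damps tyrosine kinase signalling, *Lrrc25*, *Spn* (CD43) and *Tmem176b* also had more negative WT responses, with interactions of −0.77, −0.55, −0.69 and −0.64. *Slco2b1*, an organic anion transporter, had 13.8, 13.6 and 12.1 CPM in WT with vehicle and 6.69, 7.02 and 6.85 with PF, against 11.9, 12.8 and 10.3 and 12.1, 13.5 and 14.5, and an interaction of −1.13 (SE 0.19, adjusted p = 0.0192).

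Of 43 tested regulators of actin and small GTPases 2 passed by edgeR and limma-voom, *Fgd2* and *Fmnl1*, both negative, and 5 by DESeq2 (these with *Ccdc88a*, *Coro1a* and *Vasp*). *Fgd2*, an exchange factor for CDC42, had 126, 132 and 146 CPM in WT with vehicle, 80.8, 82.9 and 76.1 with PF, 132, 122 and 106 in AMPKβ1-/- with vehicle and 129.8, 125 and 120.2 with PF. Only the WT PF libraries stood apart, and the interaction was −0.81 (SE 0.13, adjusted p = 0.0133). *Fmnl1*, a formin of leukocytes, had −0.57 (SE 0.11, adjusted p = 0.0415). Of the 43 genes 32 were negative, 15 at an unadjusted p below 0.05 (7.97% of all genes), with a median of −0.17. Outside the list *Arap3*, a GTPase activating protein for small GTPases, had 174, 163 and 166 CPM in WT with vehicle and 109, 106 and 98.9 with PF, against 124, 112 and 108 and 125, 124 and 116. WT with vehicle was thus the group that stood apart from the other 3, and the interaction was −0.77 (SE 0.11, adjusted p = 0.00811). *Arhgap4*, a GTPase activating protein as well, *Lsp1*, which binds F-actin, and *Rin3*, an exchange factor for RAB5, had −0.77, −0.62 and −0.57.

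Of 36 genes of NF-κB signalling *Bcl3* passed by edgeR and limma-voom, and *Bcl3* and *Nfkbie* by DESeq2, both negative. *Bcl3* encodes a nuclear IκB protein that binds p50 and p52, and had 41.6, 39.8 and 45.3 CPM in WT with vehicle and 28.6, 27.9 and 21.6 with PF. The AMPKβ1-/- libraries had 39.1, 36.5 and 33.7 and 40.9, 47.4 and 42.7. It fell in WT and was higher with PF than with vehicle in each AMPKβ1-/- library, though the AMPKβ1-/- response of 0.26 (SE 0.11, adjusted p = 0.928) did not pass, and the interaction was −0.96 (SE 0.16, adjusted p = 0.0196). Of the 36 genes 26 were negative and 13 of these had an unadjusted p below 0.05 (7.97% of all genes), with a median of −0.15, which was −0.072 in the GC-adjusted fit. The study named *Rela*, *Nfkb2*, *Tlr9*, *Mapk14* and *Irf8* from this pathway as lowered with PF, and its methods name no interaction term. Their responses in WT BMDMs were −0.34, −0.46, −0.65, −0.33 and −0.26 (edgeR adjusted p = 0.0253, 0.0066, 0.00227, 0.00587 and 0.0273), where 8.95% of all genes were lower. In AMPKβ1-/- their responses lay between −0.047 and −0.0068. The interactions were −0.30, −0.43, −0.60, −0.33 and −0.23 with adjusted p values of 0.326, 0.156, 0.0949, 0.14 and 0.329, so that none passed by edgeR. By DESeq2 *Tlr9* and *Mapk14* passed the interaction test. In the GC-adjusted fit the interactions of *Rela*, *Nfkb2*, *Tlr9*, *Mapk14* and *Irf8* were −0.11, −0.19, −0.38, −0.25 and −0.025.

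Of 28 immediate early genes *Fos* and *Trib1* passed by edgeR and limma-voom, and by DESeq2 *Btg2* and *Nr4a1* as well. *Fos*, the AP-1 subunit, had 93.3, 107 and 118 CPM in WT with vehicle, 66.98, 73.4 and 68.7 with PF, 173, 182 and 180.3 in AMPKβ1-/- with vehicle and 177, 187 and 199 with PF. It was higher in every AMPKβ1-/- library than in any WT library, and fell with PF in WT, with an interaction of −0.68 (SE 0.12, adjusted p = 0.0261). *Trib1*, a pseudokinase that directs C/EBPα to degradation, had 21.1, 19.9 and 21.4, 11.1, 11.2 and 9.15, 33.3, 30.8 and 29.5 and 30.1, 28.6 and 27.6 CPM in the same order of groups and an interaction of −0.87 (SE 0.15, adjusted p = 0.0236). Of the 28 genes 19 were negative and 10 of these at an unadjusted p below 0.05 (7.97% of all genes), with a median of −0.23. The median was −0.052 in the GC-adjusted fit, where *Fos* and *Trib1* still passed (adjusted p = 0.0354 and 0.0134, over a range of 0.000241 to 0.098 and 0.000745 to 0.0994 across alternatives). *Chd9*, a chromatin remodeller, had −0.63 (SE 0.099, adjusted p = 0.0134).

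Outside lipid metabolism, other genes also passed with the more positive response in WT. *Cd274*, which encodes PD-L1, had 11.4, 11.7 and 18.8 CPM in WT with vehicle and 33.4, 31.3 and 33.2 with PF, against 13.9, 15.3 and 14.5 and 15.8, 17.4 and 14.4 in AMPKβ1-/-. WT vehicle library 3 stood above the other 2, and all 3 WT PF libraries above it, with an interaction of 1.10 (SE 0.22, adjusted p = 0.044). *Ccl4*, a chemokine that attracts monocytes and T cells, had 16.8, 18.7 and 12.7 CPM in WT with vehicle and 34.9, 34.3 and 26.2 with PF, against 16.4, 18.9 and 15.6 and 16.9, 16.3 and 13.02, and 1.13 (SE 0.22, adjusted p = 0.0417). It was the 1 of 23 tested cytokines and chemokines to pass by edgeR and limma-voom, and *Ccl3* passed by DESeq2 as well. *Gng4*, a G protein γ subunit, had the largest positive value of the genes that passed, 1.30 (SE 0.27, adjusted p = 0.048), at low counts of 3.31, 3.14 and 2.89 CPM in WT with vehicle and 6.77, 6.46 and 6.15 with PF, and 3.10, 3.46 and 3.82 and 2.53, 3.53 and 2.60 in AMPKβ1-/-.

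Of 36 genes of lysosome and V-ATPase 1 passed by edgeR, *Atp6v1c1*. DESeq2 called 4 of them, *Atp6v1c1*, *Atp6v1d* and *Atp6v1h* as positive and *Tpcn1* as negative, and limma-voom 0. By edgeR 8 had an unadjusted p below 0.05 (14.3% of all genes). *Atp6v1c1* and *Atp6v1g1*, subunits of the pump that acidifies lysosomes, had interactions of 0.64 (SE 0.13, adjusted p = 0.048) and 0.58 (SE 0.11, adjusted p = 0.0417), and *Arl8b*, which moves lysosomes along microtubules, 0.70 (SE 0.13, adjusted p = 0.0358). *Arl8b* had 106, 119 and 106 CPM in WT with vehicle and 155, 180.1 and 199 with PF, against 120.2, 136 and 136 and 135, 122 and 132 in AMPKβ1-/-, where the groups overlapped. Of the 36 genes of lysosome and V-ATPase 25 were positive, with a median of 0.077. *Psma4*, a subunit of the proteasome core, had 41.2, 39.97 and 37.9 CPM in WT with vehicle, 49.5, 59.2 and 58.8 with PF, 55.1, 62.02 and 60.5 in AMPKβ1-/- with vehicle and 52.01, 51.9 and 50.5 with PF. It rose in WT and was lower with PF in each AMPKβ1-/- library, with an interaction of 0.69 (SE 0.13, adjusted p = 0.0276), and was the 1 of 36 proteasome subunits to pass by edgeR, DESeq2 or limma-voom. Its interaction was 0.40 in the GC-adjusted fit (adjusted p = 0.0492). The median of the subunits was 0.16, and 0.014 in the GC-adjusted fit. *Lrp12*, *Clec4d* (a C-type lectin), *Tpt1*, *Prdx1* (a peroxiredoxin) and *Esd* had interactions of 0.61, 0.56, 0.56, 0.54 and 0.48. *Tpt1* and *Esd* have annotated pseudogenes with which counts may be shared.

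**Figure D4:**
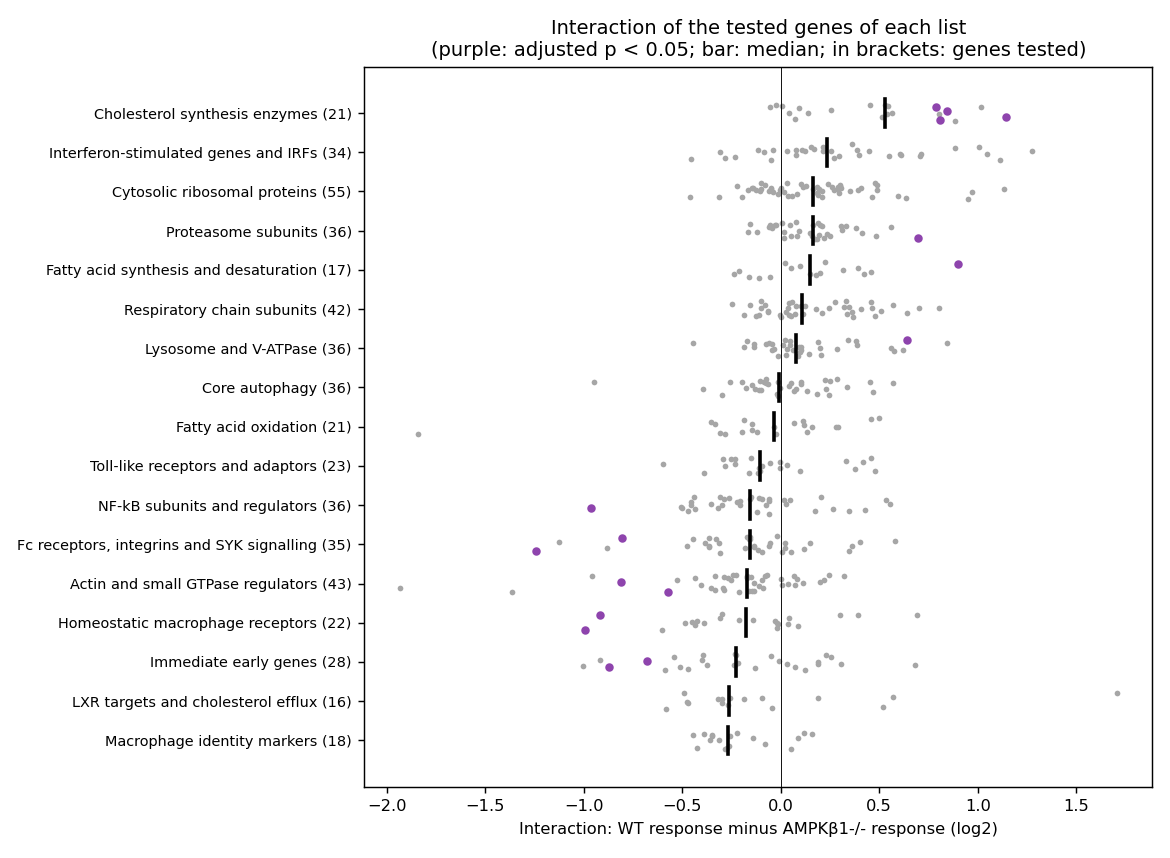
Interaction (log2, horizontal axis) of every tested gene of 17 lists, ordered by their medians, which the black bars mark. Purple points passed the test, and cholesterol synthesis has the highest median (0.53) and macrophage identity markers the lowest (−0.27).

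Several pathways held no gene that passed by edgeR. Of 36 core autophagy genes 0 passed by edgeR, DESeq2 or limma-voom, with 2 positive and 3 negative at an unadjusted p below 0.05 (6.35% and 7.97% of all genes) and a median of −0.0088. The autophagy genes named by the study, *Atg5*, *Atg12* and *Lamp2*, had interactions of 0.47 (SE 0.22), 0.34 (SE 0.18) and 0.34 (SE 0.20), with adjusted p values of 0.353, 0.417 and 0.458. Of 23 genes of Toll-like receptors and adaptors 0 passed by edgeR or limma-voom and 1 by DESeq2 (*Tlr9*), with 1 positive and 4 negative at an unadjusted p below 0.05 (6.35% and 7.97% of all genes). Of 35 genes of TFEB and mTORC1 0 passed by edgeR and 1 by DESeq2 (*Lamtor3*), with 4 positive and 2 negative at an unadjusted p below 0.05 (6.35% and 7.97% of all genes). *Klf8*, *Klf7* and *Zfp322a*, also named by the study, had 0.64 (SE 0.36), −0.0010 (SE 0.41) and −0.068 (SE 0.44), and the sign of *Klf7* and *Zfp322a* reversed under some alternatives. Of the 16 genes the study named 3 passed, among them *Cyp51* and *Insig1*. In WT alone 8 of the 16 were higher and 5 lower with PF at an adjusted p below 0.05 by edgeR, without the fold threshold (6.99% and 8.95% of all genes).

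Of 34 interferon-stimulated genes and IRFs 0 passed by edgeR, DESeq2 or limma-voom, and 2 positive and 3 negative genes had an unadjusted p below 0.05, a share near the 14.3% of all genes. The interaction was positive for 26 of the 34, beside 5388 of all 10822 genes, with a median of 0.24, and the median response was −0.065 in WT and −0.29 in AMPKβ1-/-. The mean level of the list varied between libraries of a group with an SD of 0.25 on the log2 scale, beside 0.031 for all genes. The 26 genes are thus not independent, and whether the median differs from 0 was not tested. *Rsad2*, *Ifit1* and *Gbp2*, all induced by interferon, had 1.28, 1.11 and 1.05 with SE of 0.54, 0.66 and 0.46. None of the 3 passed. Of 55 cytosolic ribosomal proteins, for which reads of pseudogenes may be shared, 36 were positive and 16 of these at an unadjusted p below 0.05 (6.35% of all genes). The medians were 0.17 for the interaction, 0.079 in WT and −0.064 in AMPKβ1-/-. The median interaction was 0.063 in the GC-adjusted fit. Of 42 respiratory chain subunits 31 were positive, 14 at an unadjusted p below 0.05 (6.35% of all genes), and the medians were 0.11, 0.066 and −0.084. The median interaction of these subunits was 0.051 in the GC-adjusted fit. None of the ribosomal or respiratory genes passed by edgeR or limma-voom, and *Rpl35*, *Rps24* and *Ndufa1* passed by DESeq2.

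Among 18 tested genes of AMPK, its upstream kinases and related kinases 0 passed by edgeR or limma-voom, with 5 at an unadjusted p below 0.05 (14.3% of all genes), and by DESeq2 1 did, *Nuak1*, an AMPK-related kinase. It had 21.4, 20.3 and 20.1 CPM in WT with vehicle and 12.4, 12.6 and 12.7 with PF, against 29.7, 30.5 and 28.2 and 27.7, 25.2 and 31.2 in AMPKβ1-/-, and an interaction of −0.64 (SE 0.15, adjusted p = 0.0702). The other subunits of AMPK, *Prkaa1*, *Prkab2*, *Prkag1* and *Prkag2*, had interactions of 0.13 (SE 0.19), 0.088 (SE 0.34), −0.14 (SE 0.14) and −0.19 (SE 0.14). *Stk11* (LKB1) and *Camkk2*, which phosphorylate the α subunit, had −0.27 (SE 0.13) and −0.14 (SE 0.13). The genome region around *Prkab1* did not stand out, since 3 of the 45 genes (6.67%) lay on chromosome 5 against 6.38% of the tested genes.

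The interaction can also be read between the genotypes. With vehicle, 27 of the 45 genes differed between AMPKβ1-/- and WT at an adjusted p below 0.05, 8 higher and 19 lower in AMPKβ1-/-, where 59.7% of all tested genes differed (29.7% higher, 30% lower). With PF 33 differed, 16 higher and 17 lower, where 47.1% of all genes did (24.1% higher, 22.9% lower; 54.3% at an unadjusted p below 0.05). Each of the 17 DEGs differed with PF, 9 lower and 8 higher, and the libraries of the genotypes did not overlap for any of the 17, where they did not overlap for 59.9% of all genes. The differences between the genotypes with vehicle and with PF are terms of the interaction by which these genes were picked. The counts therefore only describe the genes and add no support. For *Insig1* the difference was −0.012 with vehicle and −1.08 with PF, and for *Cx3cr1* −0.10 and 0.89. *Il16*, a cytokine, went the other way, with −0.67 with vehicle and 0.020 with PF, and so did *Sting1* (−0.71 and −0.095), the adaptor of cytosolic DNA sensing. *Ucp2*, a mitochondrial carrier, had −0.49 and 0.10.

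The 6 genes that rose in AMPKβ1-/- BMDMs with PF at an adjusted p below 0.05 (*Zfp677*, *Ccdc88a*, *Rock1*, *Phip*, *Arhgap5* and *Rb1cc1*) did not pass the interaction test. Their interactions were all negative, from −1.93 (*Ccdc88a*, SE 0.43, adjusted p = 0.07) to −0.75 (*Phip*, SE 0.29, adjusted p = 0.262). *Ccdc88a* encodes girdin, an actin-binding protein, and its adjusted p in the GC-adjusted fit was 0.0346. *Rb1cc1* (FIP200), a subunit of the ULK1 complex, had 2.25, 3.42 and 2.09 CPM in WT with vehicle and 2.83, 2.25 and 2.54 with PF, against 9.21, 10.5 and 10.7 and 20.5, 16.4 and 20.6 in AMPKβ1-/-. The GC content of the 6 transcripts was 35.1% to 40.3%, beside a median of 50.7% over all genes.

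GC content moved with the interaction over all genes. In each library, the deviation of log2 CPM from the gene's mean over libraries was set against GC content. Its slope per 10 points of GC was 0.37 to 0.74 in WT with vehicle and −0.052 to 0.38 in WT with PF (library 1 0.38). In AMPKβ1-/- it was −0.37 to −0.11 with vehicle and −0.53 to −0.34 with PF. The slope per 10-fold of length was −0.82 to −0.19 in WT and 0.36 to 0.65 in AMPKβ1-/-. Across 10786 genes with a known GC content Spearman's rank correlation between the interaction and GC content was −0.48 as a description, with all genes read from the same libraries, and −0.048 in the GC-adjusted fit. The median interaction was 0.21 and 0.24 in the 2 lowest of 10 equal bins of GC content and −0.21 in the highest bin. The 19 positive genes had a median GC content of 47.2% and the 26 negative ones 55.0%. In the GC-adjusted fit 161 genes passed, 74 positive and 87 negative, among them 41 of the 45. All 45 kept their sign. The 4 that did not pass were *Cd274*, *Clec4d*, *Esd* and *Prdx1*, with adjusted p values of 0.0641, 0.465, 0.513 and 0.42 and ranges over all alternatives of 0.00114 to 0.166, 0.000227 to 0.465, 0.00114 to 0.513 and 0.00144 to 0.42. The part of GC content in each interaction beyond this fit was not tested.

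**Figure D5:**
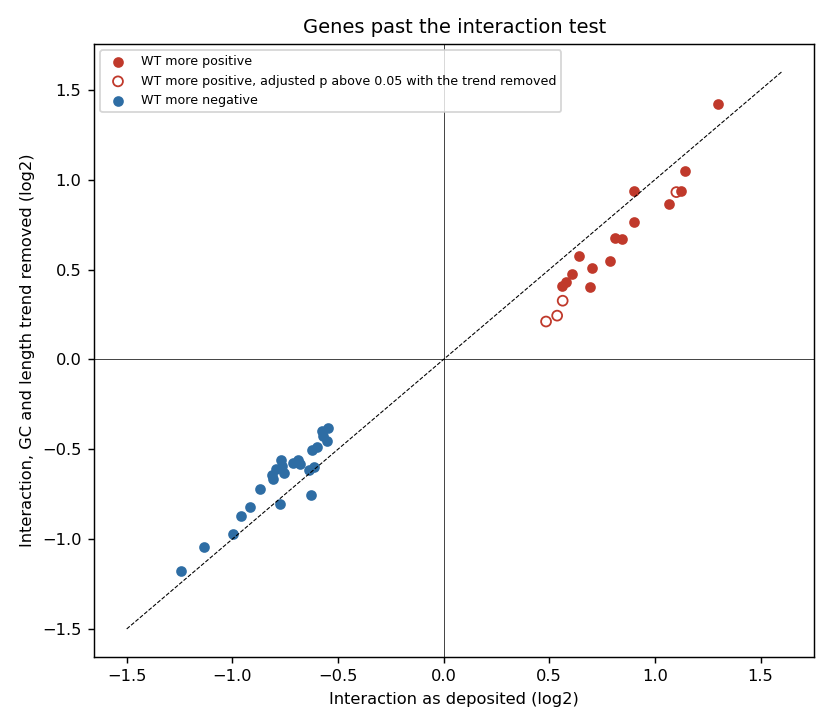
Interaction of the 45 genes that passed, as computed from the deposited counts (horizontal axis, log2) and in the GC-adjusted fit (vertical axis, log2), with equality dashed. All points lie at the lower left or the upper right, and the 4 open circles are *Cd274*, *Clec4d*, *Esd* and *Prdx1*.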

How the data were processed

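Counts per gene of 12 libraries were used, and reads and transcript-level values were not analysed here. The authors used Trim Galore for trimming and Salmon for quantification, and deposited estimated counts per gene as whole numbers without normalization. Versions, genome build and Salmon's options are not given in the sources used here. Groups were taken from the labels and matched to the count columns by their names.

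Counts were fitted with edgeR 4.0.16 in R 4.3.3 (quasi-likelihood, robust; TMM; filterByExpr by group), with 4 group means and 12 libraries in one fit, and tested as (WT PF − WT vehicle) − (AMPKβ1-/- PF − AMPKβ1-/- vehicle). DEGs needed an adjusted p (Benjamini-Hochberg) below 0.05 and a log2 value above 0.8 or below −0.8. SE were derived from the F statistic, and CPM are normalized by TMM except in the summed marker levels, which are scaled to total counts alone. Floors at a count of 0 cover counting error only. GC content and length came from GENCODE M21, joined on the symbol for 12703 genes and on a former symbol for 194, with 63 unmatched. Their trend was fitted in each library by splines (5 degrees of freedom) and used as an offset, called the GC-adjusted fit. The other alternatives were 3 scalings, 2 filters, glmTreat, DESeq2 1.42.0, limma-voom 3.58.1 with and without quality weights, the column number as a block and each library left out. Scripts were tested on simulated data.

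The genes, lists and tests were chosen with earlier results of these data known. The rule for naming genes took *Prkab1*, DEGs (at most 15 in each direction), the 10 smallest p values, list members that passed (at most 4) or had the smallest p in a list, the genes the study named and the AMPK genes. All other genes named, such as *Dok2*, *Arhgap4*, *Arl8b*, *Il16*, *Sting1*, *Ucp2*, *Abca1* and *Rsad2*, were chosen after their values were seen. A few genes that passed or belonged to a list are counted but not reported here by name.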

Additional observations from a re-analysis of the deposited data

Results flagged for a closer look

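The response to PF differed between the genotypes, by the interaction term itself, for the same 45 genes that the results describe, and the values of 43 of them on the log2 scale are gathered here by what the genes are known to do. A positive value is a response that was more positive in WT BMDMs. In sterol and lipid metabolism the interaction was 1.07 for *Insig1*, 1.14 for *Hsd17b7*, 0.84 for *Cyp51*, 0.79 for *Msmo1*, 0.90 for *Scd2* and 0.90 for *Fabp5*. In lysosomes, the proteasome and redox defence the interaction was 0.70 for *Arl8b*, 0.64 for *Atp6v1c1*, 0.58 for *Atp6v1g1*, 0.69 for *Psma4* and 0.54 for *Prdx1*. Among signalling and surface molecules the interaction was 1.13 for *Ccl4*, 1.10 for *Cd274*, 1.30 for *Gng4*, 0.56 for *Clec4d* and 0.61 for *Lrp12*. For other positive genes the interaction was 0.56 for *Tpt1* and 0.48 for *Esd*. Among surface and secreted molecules, on the negative side, the interaction was −0.995 for *Cx3cr1*, −1.24 for *Siglece*, −1.13 for *Slco2b1*, −0.92 for *Olfml3*, −0.71 for *Igfbp4*, −0.69 for *Il16*, −0.55 for *Lrrc25*, −0.69 for *Spn* and −0.64 for *Tmem176b*. Among signalling proteins the interaction was −0.96 for *Bcl3*, −0.77 for *Dok2*, −0.81 for *Fgr*, −0.76 for *Cracr2b* and −0.62 for *Sting1*. Among regulators of small GTPases and actin the interaction was −0.81 for *Fgd2*, −0.77 for *Arap3*, −0.77 for *Arhgap4*, −0.57 for *Fmnl1*, −0.62 for *Lsp1* and −0.57 for *Rin3*. Among transcription and chromatin regulators the interaction was −0.68 for *Fos*, −0.87 for *Trib1* and −0.63 for *Chd9*. For other negative genes the interaction was −0.55 for *Ap1b1* and −0.60 for *Ucp2*.

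Adjusted p values from edgeR ran from 0.000174 (*Cx3cr1*) to 0.048 (*Lrp12*). WT responses had the sign of the interaction in all 45, and the libraries of WT with PF and with vehicle did not overlap for any of them (32.2% of all tested genes). The WT response is a term of the interaction, so that this describes the genes and is no further support.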

How the results depend on the processing

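All 45 genes past the test kept their sign under every alternative run. Counts past the test (19 positive, 26 negative) and of DEGs (9 and 8) stayed within 1.5 times under the other scalings, filters and limma-voom. DESeq2 gave 68 and 111 genes past the test and 19 and 17 DEGs, limma-voom with sample quality weights 339 and 550, with 67 and 58 DEGs, and the GC-adjusted fit 74 and 87, with 13 and 19 DEGs. Against a log2 difference of 0.8 itself glmTreat called 0 genes in either direction (51 at an unadjusted p below 0.05), so that no single difference was shown to exceed that size. The cause of these differences was not tested.

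Leaving out 1 library moved the positive genes past the test between 3 and 133 and the negative ones between 2 and 152, and the DEGs between 3 and 59 and between 1 and 25. The highest counts came without WT PF library 1 and the lowest without AMPKβ1-/- vehicle library 2. In the order of libraries 1 to 3, the total of 45 became 23, 28 and 36 when a WT vehicle library was dropped, 285, 10 and 13 for WT PF, 87, 5 and 8 for AMPKβ1-/- vehicle and 6, 8 and 12 for AMPKβ1-/- PF.

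No pairing was read from the column numbers. Deviations from the group mean were correlated over genes between same-numbered vehicle and PF libraries of a genotype, and gave only −0.17 to 0.32. With the replicate block 16 positive and 31 negative genes passed (7 and 8 DEGs).

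Signs reversed for 8 named genes that did not pass. In the GC-adjusted fit *Camkk2* was 0.052, *Sik1* 0.084, *Sik3* 0.088, *Prkab2* −0.054 and *Klf7* 0.052. *Klf7* was also 0.00098 with DESeq2's size factors, 0.034 with the upper quartile, 0.063 with library size alone, 0.0078 with no filter and 0.0037 with at least 10 counts in every library. *Sik3* was 0.016 with library size alone, *Cd79b* 0.13 with quality weights and *Prkab2* −0.012 with limma-voom. Over the fits without 1 library *Col1a2* ran from −0.20 to 0.97, *Sik3* from −0.14 to 0.044, *Cd79b* from −0.37 to 0.22, *Prkab2* from −0.18 to 0.33, *Zfp322a* from −0.48 to 0.14 and *Klf7* from −0.23 to 0.21.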
